A study of Mus musculus with 8 samples.

Results

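The Piezo and Tmem63 mechanically gated channel genes, together with the Piezo regulator Stoml3, were followed as 6 genes of the 24538 listed in the count files: Piezo1, Piezo2, Tmem63a, Tmem63b, Tmem63c and Stoml3. They were chosen by symbol, as channels opened by membrane tension and a regulator of touch, and all 6 symbols were found. RNA was measured in 8 libraries of skin cells sorted from newborn mice (postnatal day 0) of the genotype Atoh1-GFP, in which green fluorescent protein (GFP) reports Atoh1, the gene that specifies Merkel cells. There were 4 groups of 2 libraries, Merkel and IFE cells from the paw and Merkel and IFE cells from back skin, and all 8 libraries carried the reporter and came from the same age. Merkel cells were sorted as positive for GFP and EpCAM and negative for Sca1. IFE cells, epidermal cells that the labels name only by this abbreviation, were sorted as positive for EpCAM and Sca1 and negative for GFP. Whether a group's libraries came from separate or from pooled animals is not given by the labels, so p-values measure the spread between these libraries, which may be technical.

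Piezo1 and Piezo2 are very large membrane proteins that assemble as trimers and pass cations when the membrane is stretched. Piezo2 is the touch channel of Merkel cells and of the sensory neurons that contact them, and Piezo1 serves mainly in non-neuronal cells such as endothelium, red blood cells and epithelia. The Tmem63 proteins are the mammalian relatives of the plant OSCA channels and open under high membrane tension or osmotic stress, and Stoml3 is a stomatin-domain membrane protein that sensitizes Piezo channels in mouse sensory neurons.

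Total counts ran from 11139306 to 26195076 per library. The sorted populations carried their defining transcripts: 10 Merkel markers summed to 3080 to 4720 CPM (gene counts relative to the library's scaled total) in Merkel libraries and 2.81 to 8.73 CPM in IFE libraries, and 10 keratinocyte markers to 2120 to 8130 CPM in Merkel libraries and 30200 to 45800 CPM in IFE libraries. Paw Merkel library 1 held the 8130 CPM of keratinocyte markers, against 2120 to 2840 CPM in the other Merkel libraries. Across genes, the closest library to back IFE library 2 was paw IFE library 1 (Pearson r = 0.931, against 0.897 with its own group), and the closest to paw Merkel library 1 was back Merkel library 1 (0.858, against 0.826 with its own group). The Merkel against IFE results of Piezo2 and Piezo1 are given with and without paw Merkel library 1 or back IFE library 2. For other results this is given only in part.

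The stretches before 2 of the start sites are shown because their content differed between a gene counted in all libraries and a gene that hardly was. Piezo1 was counted in every library, and Tmem63c had at most 8 counts in any. The sequences are the 250 bases before the gene start from RefSeq (GRCm38.p6), 5′ to 3′ on the gene's strand, with each CG dinucleotide (CpG) in capitals.
Piezo1: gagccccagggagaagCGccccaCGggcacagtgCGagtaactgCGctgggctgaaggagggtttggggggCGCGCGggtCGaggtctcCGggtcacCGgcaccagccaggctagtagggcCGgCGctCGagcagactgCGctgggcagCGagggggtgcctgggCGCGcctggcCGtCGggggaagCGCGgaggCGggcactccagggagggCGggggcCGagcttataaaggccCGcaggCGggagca
Tmem63c: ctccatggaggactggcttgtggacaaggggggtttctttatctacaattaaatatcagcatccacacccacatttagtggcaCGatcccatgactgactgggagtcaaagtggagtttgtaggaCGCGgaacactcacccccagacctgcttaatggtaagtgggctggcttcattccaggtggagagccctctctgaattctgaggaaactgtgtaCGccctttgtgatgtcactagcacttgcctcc
The Piezo1 window (chr8:122551330-122551579, minus strand) held 26 CpG, and the Tmem63c window (chr12:87021090-87021339, plus strand) held 4. CG reads the same on both strands, so 1 count covers them, and of 32841 such windows, 9.59% held at least 26 and 62.2% at least 4. A window before a second annotated start of Tmem63c held 5. The windows of Tmem63b and Tmem63a, which were also counted in every library, held 31 and 23 CpG, and that of Stoml3, with at most 13 counts in a library, held 2. For these 3 genes the RefSeq start lies inside the wider GENCODE span given with each gene, so their windows overlap other annotated transcripts and are not shown. Windows were matched for 5 of the 6 genes, and Piezo2 was the gene without one. Medians were taken over windows, of which a gene can have several. The median was 14 CpG over 14540 windows of 11497 genes that passed the filter on low counts. It was 3 over 6716 windows of 6136 genes of the count files that did not. This is a description of sequence and level, and no binding or methylation was measured.

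Of the 6 genes, 4 passed the filter and were tested among 15151 genes (Piezo1, Piezo2, Tmem63a and Tmem63b). Tmem63c and Stoml3 did not pass it. Piezo2 rose in Merkel cells at both sites, and the other 3 tested genes did not pass the threshold in any comparison (edgeR quasi-likelihood test, Benjamini-Hochberg adjusted p under 0.05). In the paw 1 of 4 was called, where 6.21% of all genes tested were called (4.28% higher and 1.93% lower in Merkel cells). In back skin it was again 1 of 4, where 15.4% of all genes were called (7.99% higher and 7.45% lower). With so few genes these shares are a description of the 4 and no statement about channel genes as a group.

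Piezo2 (chromosome 18, 63010213 to 63387183, minus strand, GRCm38) was the gene with the greatest difference among the 4. Paw Merkel libraries 1 and 2 measured 525 and 1207 CPM, against 12.96 and 10.8 CPM in paw IFE libraries 1 and 2. Back Merkel libraries 1 and 2 measured 1266 and 1301 CPM, against 7.055 and 6.95 CPM in back IFE libraries 1 and 2. All 4 Merkel libraries therefore lay far above all 4 IFE libraries, and paw Merkel library 1 was the lowest of the Merkel libraries. In the paw the log2 fold change was 6.19 (SE 0.47, 95% confidence interval 5.15 to 7.23, adjusted p = 2.08e-05), which is 72.9-fold higher in Merkel cells, and 5.21% of all genes tested had a larger change in either direction. In back skin it was 7.52 (SE 0.50, interval 6.41 to 8.62, adjusted p = 7.32e-06), 183-fold higher in Merkel cells, with 6.01% of genes further apart. Without paw Merkel library 2 the paw value was 5.47 on the log2 scale (adjusted p = 1.7e-05), and without paw Merkel library 1 it was 6.67. The back value lay between 7.50 and 7.53 when any 1 library was left out, back IFE library 2 included. In order of group means, Piezo2 stood at 1283 ± 24.5 CPM in back Merkel, 866 ± 482 CPM in paw Merkel, 11.9 ± 1.555 CPM in paw IFE and 7.001 ± 0.0776 CPM in back IFE cells (SD, n = 2 each), and of the neighbours in this order only paw Merkel and paw IFE cells differed past the threshold. In bulk libraries fewer cells of a type and less RNA per cell cannot be told apart.

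Merkel markers differed in whether they were low with Piezo2 in paw Merkel library 1. Of the 10 markers, 5 were lowest there among the 4 Merkel libraries (Rab3c, Isl1, Krt20, Chga and Cck), Rab3c with 659 CPM in it, 1670 CPM in paw Merkel library 2 and 1720 and 1740 CPM in back Merkel libraries 1 and 2. Atoh1 was highest there. Atoh1, which GFP reports and which so entered the sort, measured 304 and 284 CPM in paw Merkel libraries 1 and 2 and 214 and 178 CPM in back Merkel libraries 1 and 2. Per Atoh1 count, Piezo2 stood at 1.72 and 4.25 in paw Merkel libraries 1 and 2 and at 5.93 and 7.31 in back Merkel libraries 1 and 2. Against Krt20, a keratin of Merkel cells, the ratios were 1.46 and 2.65 in the paw and 1.5 and 1.33 in back skin, so the order of the libraries depended on which marker was used. The higher keratinocyte marker sum of paw Merkel library 1 moved with its lower Piezo2, and its part in that value was not tested.

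**Figure D1:**
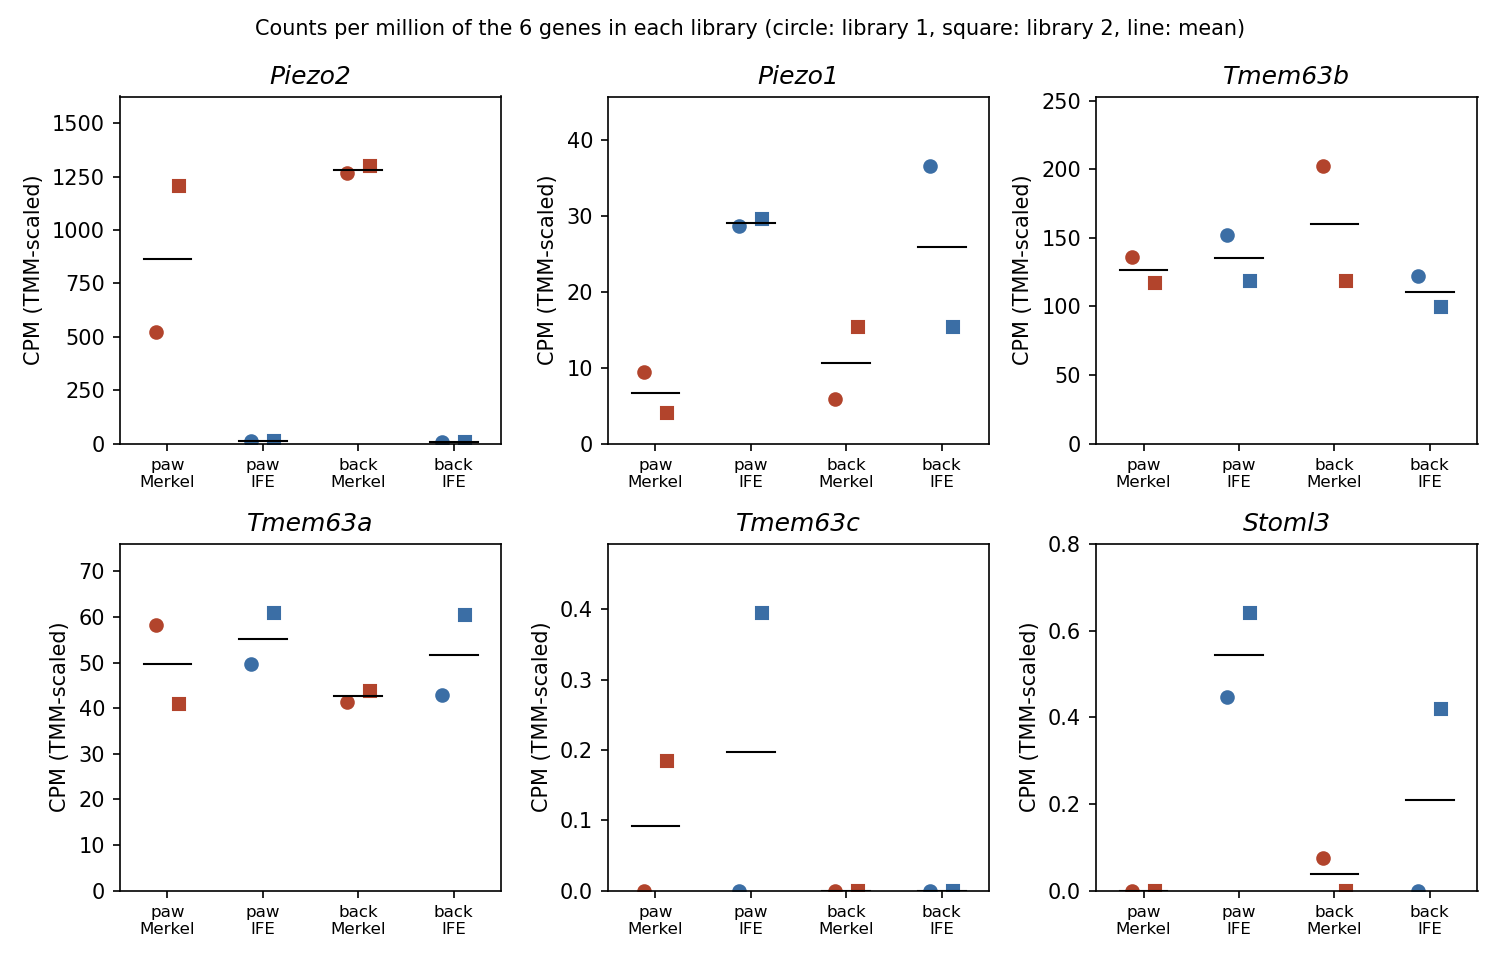
CPM of each gene (vertical axes, linear, starting at 0, scaled by the trimmed mean of M-values) in the 2 libraries of each group, with the group mean as a line. Piezo2 sits between 525 and 1301 CPM in Merkel libraries and at 12.96 CPM or below in IFE libraries, while Tmem63a and Tmem63b overlap between the cell types.

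Piezo2 RNA in IFE cells was low but was counted in every library, with 318 and 218 counts in the paw and 130 and 182 in back skin. Its IFE mean was 1.37% of the Merkel mean in the paw and 0.546% in back skin. The 10 Merkel markers had a median of 0.134% in the paw (lowest 0.039%, highest 1.05%) and 0.0753% in back skin (lowest 0.0506%, highest 0.672%). All 10 markers stood below Piezo2 in the paw, and 9 of 10 did in back skin, where Krt18 stood above it. Krt8 stood at 0.204 CPM in paw IFE library 1 and 3.36 CPM in paw IFE library 2, and Krt18 at 0 and 2.17 CPM, with Piezo2 at 12.96 and 10.8 CPM. The part of Merkel cell RNA in the Piezo2 values of IFE libraries was not tested. Transcripts of sensory neurons, which also use Piezo2, were scarce in IFE libraries: 11 neuronal markers summed to 2.88 to 10.3 CPM, with 5 to 7 of them at 0. Avil was the highest of these markers in every IFE library, with 6.46 CPM in paw IFE library 2, where Prph stood at 2.37 CPM. In Merkel libraries the same list summed to 263 to 755 CPM, of which 71.7% to 97.7% came from Pou4f1 and Avil. Tubb3, a neuronal tubulin, stood at 70.4 and 7.74 CPM in the paw Merkel libraries and 26.9 and 10.6 CPM in the back Merkel libraries, and at most 0.296 CPM in IFE libraries. Scn11a (2.78 and 5.62 CPM) and Tac1 (0.623 and 6.45 CPM) were counted in the paw Merkel libraries, Scn10a reached at most 0.277 CPM in any Merkel library, and Prph and Mrgprd were at 0 in all 4. A melanocyte list also moved with the cell type, at 127 to 215 CPM in Merkel and 8.56 to 16.8 CPM in IFE libraries. Of this, Kit gave 103 to 194 CPM in Merkel libraries. Mitf stood at 11.3 to 21.2 CPM in Merkel and 2.89 to 11.2 CPM in IFE libraries. Pmel stood at 0.293 to 5.7 CPM in Merkel and 2.55 to 5.08 CPM in IFE libraries. Dct reached 3.04 CPM, Sox10 2.35 CPM and Tyr 0.989 CPM in Merkel libraries. Tyrp1 was at 0 in all 4 Merkel libraries and Mlana in 3 of them. The part of either list in the Piezo2 difference was not tested.

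**Figure D2:**
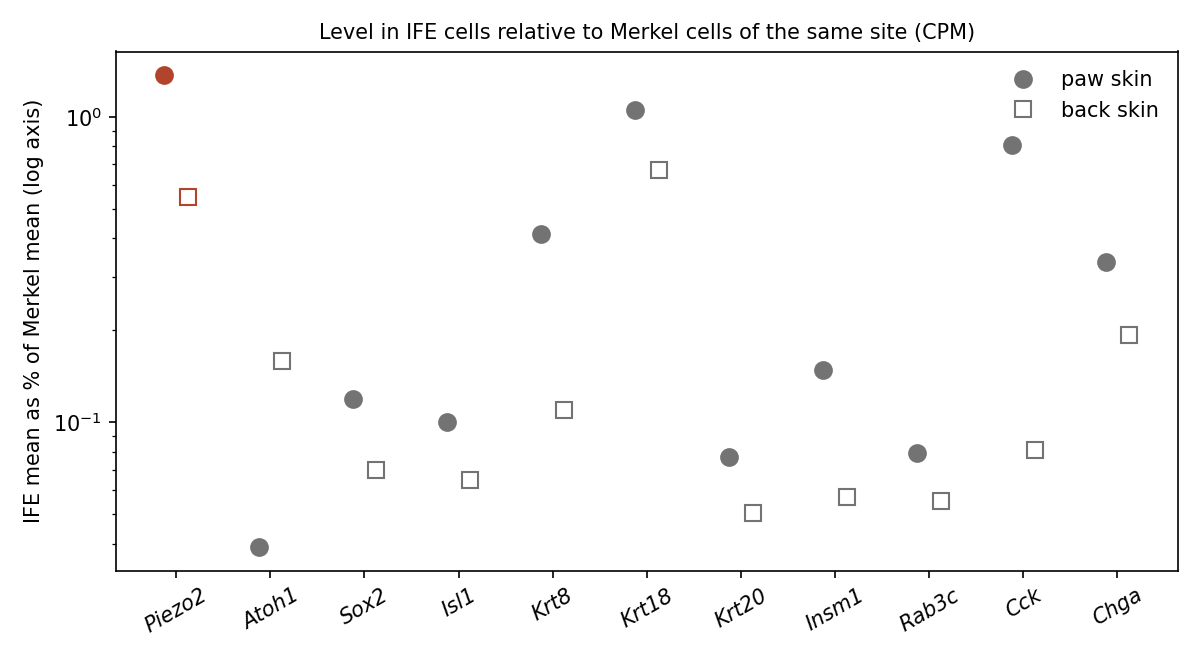
IFE mean CPM as a percentage of the Merkel mean CPM at the same site (vertical axis, log scale) for Piezo2 and 10 Merkel markers, with paw skin as filled circles and back skin as open squares. Piezo2 at 1.37% is the highest value in the paw, and in back skin Krt18 at 0.672% exceeds Piezo2 at 0.546%.

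Piezo1, the paralogue of Piezo2 (chromosome 8, 122481698 to 122551329, minus strand), had lower values in Merkel than in IFE cells without passing the threshold. It measured 9.39 and 3.96 CPM in paw Merkel libraries 1 and 2, against 28.6 and 29.6 CPM in paw IFE libraries 1 and 2. It measured 5.86 and 15.3 CPM in back Merkel libraries 1 and 2, against 36.6 and 15.3 CPM in back IFE libraries 1 and 2. The paw groups did not overlap, as for 53.6% of all genes tested, and in back skin, where 61.9% of all genes did not overlap, the higher Merkel and the lower IFE library were level at 15.3 CPM. The log2 fold change was -2.12 in the paw (SE 0.83, interval -3.94 to -0.29, adjusted p = 0.17) and -1.29 in back skin (SE 0.81, interval -3.07 to 0.49, adjusted p = 0.308). Without paw Merkel library 1 the paw value was -2.87 (adjusted p = 0.0871) and without paw Merkel library 2 it was -1.63 (adjusted p = 0.463). In order of group means, Piezo1 stood at 29.1 ± 0.648 CPM in paw IFE, 26.0 ± 15.0 CPM in back IFE, 10.6 ± 6.71 CPM in back Merkel and 6.68 ± 3.84 CPM in paw Merkel cells (SD, n = 2 each). Neighbours in this order did not differ past the threshold. Without back IFE library 2 the back value was -1.79 (adjusted p = 0.275) and without back IFE library 1 it was -0.54 (adjusted p = 0.824). Averaged over both sites, a contrast added after seeing these values, the log2 fold change was -1.71 (SE 0.58, interval -2.98 to -0.43, adjusted p = 0.0538, where 23.9% of all genes were called). Leaving out 1 library gave adjusted p-values for that contrast of 0.0302 (without paw Merkel library 1) to 0.206 (without back IFE library 1), and only the first of these passed the threshold.

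Of the 9935 exonic bases of Piezo1, 24.6% also belong to Ctu2, a gene on the opposite strand, and whether the counting used strand is not given in the sources used here. Its values are uncertain to that extent. Ctu2 measured 10.3 and 3.04 CPM in paw Merkel libraries 1 and 2, against 4.07 and 5.03 CPM in paw IFE libraries 1 and 2. It measured 2.89 and 1.56 CPM in back Merkel libraries 1 and 2, against 2.66 and 11.1 CPM in back IFE libraries 1 and 2. Like Piezo1, it was higher in library 1 than in library 2 of the paw Merkel pair, while in the back pairs the order of its libraries was opposite to that of Piezo1. The part of Ctu2 in the Piezo1 counts was not tested. Ctu2 did not pass the threshold at either site (log2 fold change 0.55, adjusted p = 0.854 in the paw and -1.62, adjusted p = 0.425 in back skin). Markers of other cells that use Piezo1 were low: 8 endothelial markers summed to 0.431 to 11.5 CPM in Merkel libraries (Pecam1 giving up to 9.97 CPM) and 2.62 to 5.70 CPM in IFE libraries, with Cldn5 and Tie1 at 0 in all 8, and an erythroid list summed to 5.85 to 24.5 CPM in Merkel and 15.8 to 21.1 CPM in IFE libraries, nearly all of it Alas2, with the 4 globin genes of the list at 0 in all 8. Fibroblast markers summed to 78 to 174 CPM in Merkel and 111 to 544 CPM in IFE libraries. Dcn stood at 3.61 to 86.1 CPM in Merkel and 60.6 to 230 CPM in IFE libraries. Col3a1 stood at 0.195 to 13.4 CPM in Merkel and 8.09 to 195 CPM in IFE libraries. Col1a2 stood at 23.8 to 165 CPM in Merkel and 21.7 to 36.1 CPM in IFE libraries. Twist2 was at 0 in all 8. Immune markers summed to 0.586 to 10.1 CPM in Merkel libraries and 23.2 to 751 CPM in IFE libraries, highest in back IFE library 1, which also had the highest Piezo1, and the part of these lists in the Piezo1 values was not tested.

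**Figure D3:**
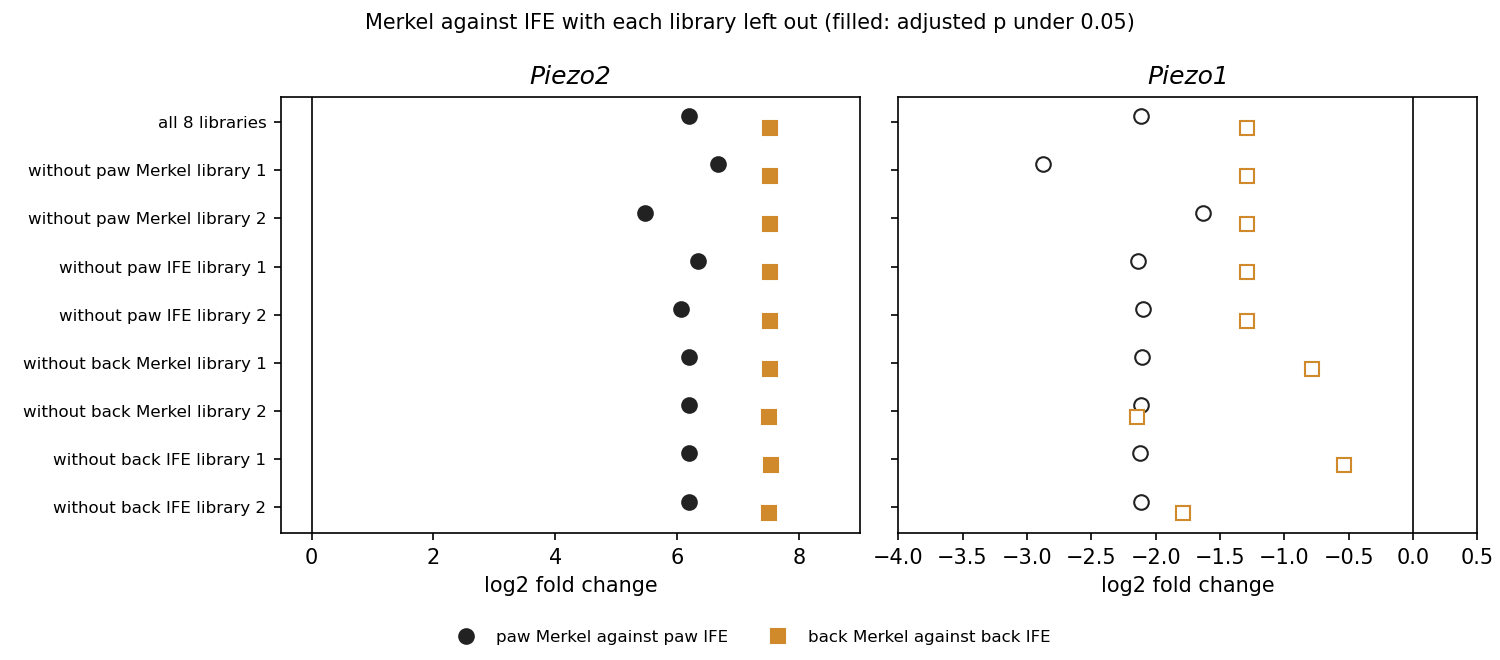
log2 fold change of Merkel against IFE cells (horizontal axes, each with its own range) for Piezo2 and Piezo1, with all 8 libraries and with each library left out in turn, in the paw (circles) and in back skin (squares). Every Piezo2 value is filled (adjusted p under 0.05), no Piezo1 value is, and the back value of Piezo1 runs from -2.15 to -0.54.

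The Tmem63 genes showed no difference between the cell types past the threshold. Tmem63b (chromosome 17, 45660171 to 45686905, minus strand) overlapped between the cell types at both sites. It measured 136 and 117 CPM in paw Merkel libraries 1 and 2, against 152 and 119 CPM in paw IFE libraries 1 and 2. It measured 203 and 118 CPM in back Merkel libraries 1 and 2, against 122 and 99.5 CPM in back IFE libraries 1 and 2. Back Merkel library 1 stood highest, and the other 7 libraries lay between 99.5 and 152 CPM. The log2 fold change was -0.10 in the paw (SE 0.37, interval -0.91 to 0.71, adjusted p = 0.92) and 0.54 in back skin (SE 0.37, interval -0.28 to 1.35, adjusted p = 0.357), and the back value was 0.08 without back Merkel library 1. The intervals reach from 0.532-fold to 1.64-fold in the paw and from 0.824-fold to 2.55-fold in back skin. Of the exonic bases of Tmem63b 7.73% are shared with genes on the other strand, among them Mrpl14, which had at most 4.54 CPM.

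Tmem63a (chromosome 1, 180942344 to 180975112, plus strand) stayed between 40.9 and 60.9 CPM in all 8 libraries. It measured 58.3 and 40.9 CPM in paw Merkel libraries 1 and 2, against 49.6 and 60.9 CPM in paw IFE libraries 1 and 2. It measured 41.5 and 43.9 CPM in back Merkel libraries 1 and 2, against 42.8 and 60.4 CPM in back IFE libraries 1 and 2. The groups overlapped at both sites. The log2 fold change was -0.15 in the paw (SE 0.45, interval -1.14 to 0.83, adjusted p = 0.89) and -0.28 in back skin (SE 0.45, interval -1.26 to 0.71, adjusted p = 0.725), and without back IFE library 2, the highest back library, it was -0.01.

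**Figure D4:**
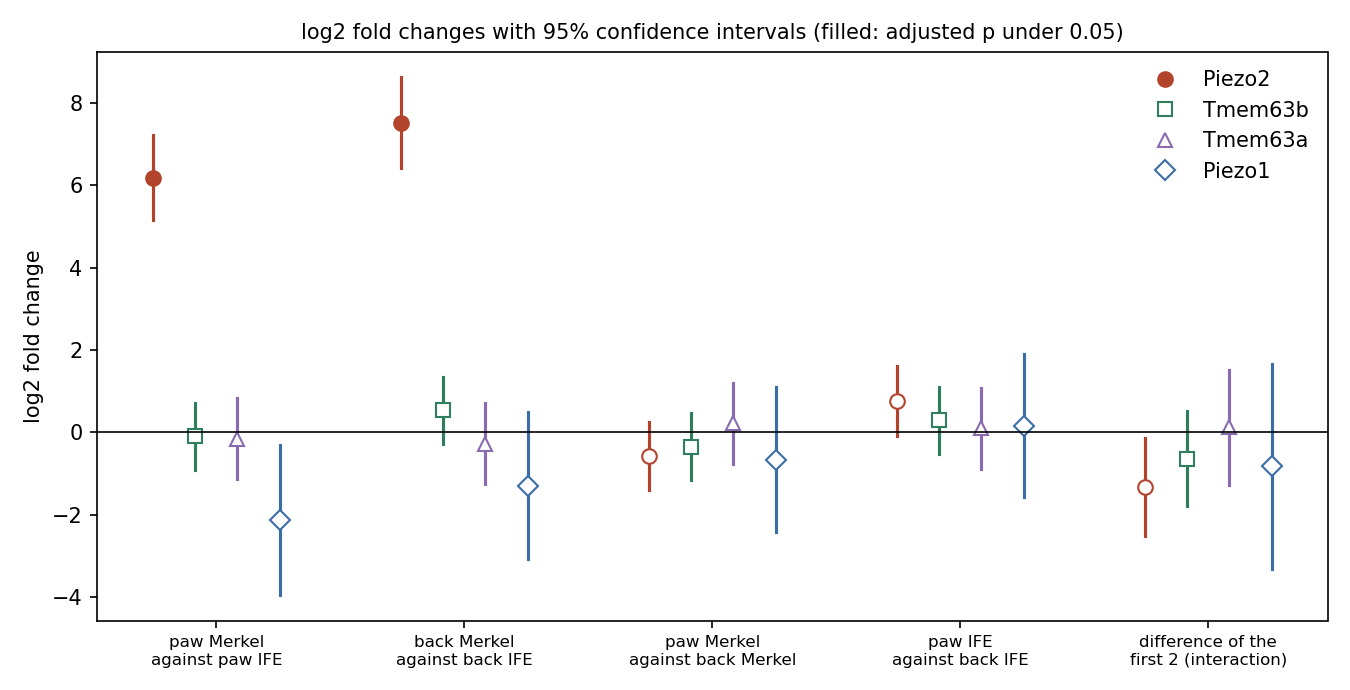
log2 fold changes (vertical axis) of the 4 tested genes in the 5 comparisons, as points with 95% confidence intervals from the edgeR quasi-likelihood fit. Piezo2 at 6.19 in the paw and 7.52 in back skin are the only filled points (adjusted p under 0.05), and the intervals of Tmem63a and Tmem63b cross 0 in every comparison.

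Compared per length, in the deposited FPKM (fragments per kilobase, scaled to library size), the order of the channels differed between the cell types. In IFE libraries the order was Tmem63b, Tmem63a, Piezo1 and Piezo2 in all 4. Tmem63b stood at 57.0 and 49.2 FPKM in the paw and at 47.0 and 45.4 FPKM in back skin. Piezo2 stood at 1.20 and 0.887 FPKM in the paw and at 0.635 and 0.616 FPKM in back skin. In Merkel libraries Piezo2 took the top place in 3 of 4, with 108 FPKM in paw Merkel library 2 and 117 and 118 FPKM in back Merkel libraries 1 and 2. In paw Merkel library 1 it was second, at 44.7 FPKM below 59.9 FPKM of Tmem63b. Piezo1 was the lowest of the 4 in every Merkel library, at 1.47 and 0.507 FPKM in the paw and 0.378 and 3.32 FPKM in back skin.

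The balance within the Piezo pair therefore turned over between the cell types. Piezo2 made up 96.8% and 99.5% of the FPKM of both Piezo genes in paw Merkel libraries 1 and 2, against 19.5% and 13.6% in paw IFE libraries 1 and 2. It made up 99.7% and 97.3% in back Merkel libraries 1 and 2, against 6.11% and 15.1% in back IFE libraries 1 and 2. The FPKM of Piezo1 did not always follow its counts. Back Merkel library 1 had 5.86 CPM and 0.378 FPKM of it, against 3.96 CPM and 0.507 FPKM in paw Merkel library 2. With the exonic bases that Piezo1 shares with Ctu2, the exact shares are uncertain. The Tmem63b to Tmem63a ratio kept its direction in all 8 libraries, with 2.74 and 3.41 in the Merkel and 3.81 and 2.17 in the IFE libraries of the paw, and with 5.66 and 3.74 in the Merkel and 2.91 and 1.81 in the IFE libraries of back skin. The FPKM of all 6 genes summed to 128 to 235 in Merkel libraries and 73.5 to 78.7 in IFE libraries, and Piezo2 gave 35.0% to 58.5% of the sum in Merkel libraries and 0.826% to 1.53% in IFE libraries. Among all 24453 rows of the table Piezo2 ranked 311 to 1260 in Merkel libraries and 10822 to 11969 in IFE libraries, while Tmem63b ranked 417 to 985 in Merkel libraries and 882 to 1382 in IFE libraries.

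**Figure D5:**
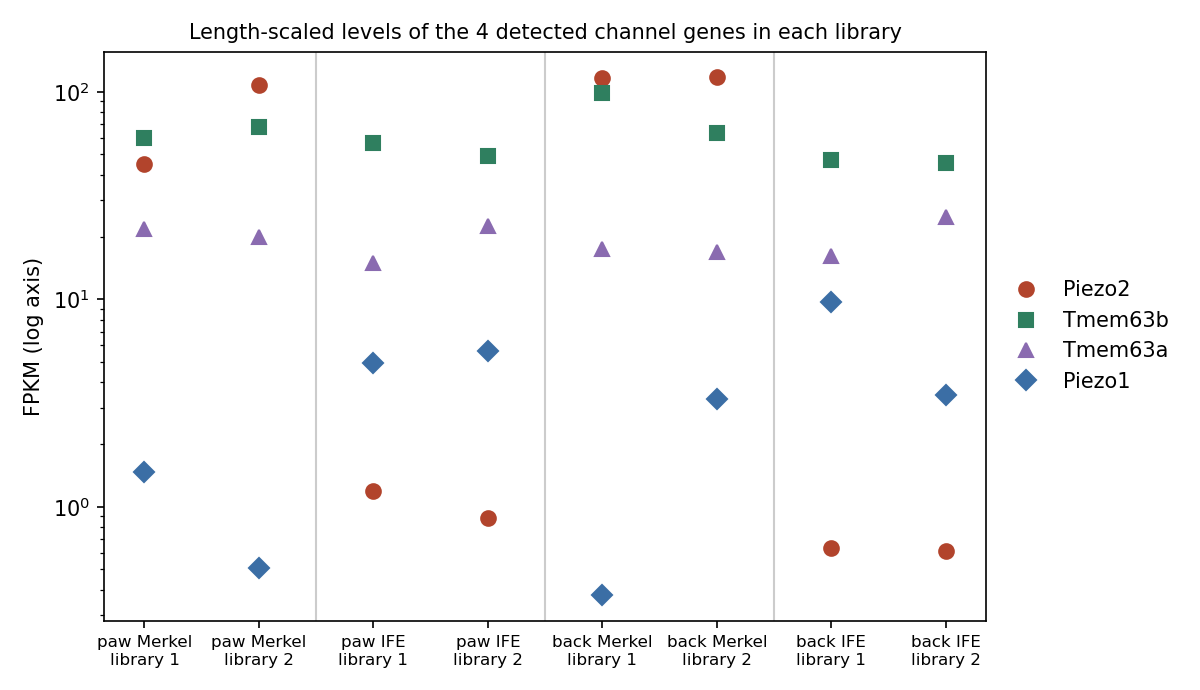
FPKM (vertical axis, log scale) of Piezo2, Tmem63b, Tmem63a and Piezo1 in each of the 8 libraries. Tmem63b and Tmem63a stay between 15.0 and 99.3 FPKM throughout, Piezo2 is at 44.7 to 118 FPKM in Merkel and 0.616 to 1.20 FPKM in IFE libraries, and Piezo1 is above Piezo2 in the 4 IFE libraries only.

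Stoml3 (chromosome 3, 53488653 to 53508502, plus strand) had 0 counts in both paw Merkel libraries, against 11 and 13 counts in paw IFE libraries 1 and 2. It had 1 and 0 counts in back Merkel libraries 1 and 2, against 0 and 11 counts in back IFE libraries 1 and 2. The 4 Merkel libraries together thus held 1 count and the 4 IFE libraries 35. With 3 counts over the group as the limit of a count of 0, Stoml3 was at least 5.66-fold lower in paw Merkel cells. That limit takes the paw IFE count as exact. In back skin the ratio of Merkel to IFE was 0.174 with an exact binomial 95% interval of 0.00403 to 1.19. Both cover counting error only. A count of 0 allowed up to 0.144 and 0.277 CPM in paw Merkel libraries 1 and 2 and up to 0.293 CPM in back Merkel library 2. The FPKM did not follow the counts at this depth: Stoml3 was listed at 0 FPKM in paw IFE library 1, which had 11 counts, and at 0.159 FPKM in back Merkel library 1, which had 1.

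Tmem63c (chromosome 12, 87021340 to 87090043, plus strand) had 0 and 2 counts in paw Merkel libraries 1 and 2, against 0 and 8 in paw IFE libraries 1 and 2, and 0 in all back libraries. The paw ratio of Merkel to IFE was 0.353 with an interval of 0.0365 to 1.77. The limits of a count of 0 lay between 0.115 and 0.293 CPM in the 6 libraries without a count.

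The comparison of paw with back Merkel cells addresses whether Merkel cells of the foot and of the trunk carry the same channels. Both paw Merkel libraries (525 and 1207 CPM) lay below both back Merkel libraries (1266 and 1301 CPM) for Piezo2, and the groups of 35.4% of all genes likewise did not overlap. The log2 fold change of paw over back was -0.57 (SE 0.38, interval -1.40 to 0.26, adjusted p = 0.638), -1.29 without paw Merkel library 2 (adjusted p = 0.146) and -0.09 without paw Merkel library 1 (adjusted p = 0.917). The interval runs from 0.380-fold to 1.20-fold. Of the 4 tested genes edgeR called 0, where it called 0.185% of all genes, 0 had an unadjusted p under 0.05, against 1550 of the 15151 genes, and DESeq2 called 0, where it called 512 genes. Piezo1 (log2 fold change -0.66, adjusted p = 0.826), Tmem63b (-0.35, adjusted p = 0.797) and Tmem63a (0.22, adjusted p = 0.911) gave groups that overlapped.

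Between paw and back IFE cells Piezo2 lay the other way. The paw IFE libraries (12.96 and 10.8 CPM) were both above the back IFE libraries (7.055 and 6.95 CPM), a lack of overlap shared by 40.4% of all genes, with a log2 fold change of 0.76 (SE 0.39, interval -0.09 to 1.61, adjusted p = 1). Leaving out back IFE library 2, the one closest to a paw IFE library, it was 0.75 (adjusted p = 0.847). Again edgeR called 0 of 4, with 0% of all genes called, 0 had an unadjusted p under 0.05, against 643 of all genes, and DESeq2 called 0, against 84 of all genes. The other 3 genes had log2 fold changes of 0.10 to 0.29 (adjusted p = 1 for each). The test of the difference itself, paw Merkel over paw IFE against back Merkel over back IFE, gave Piezo2 a log2 difference of -1.33 (SE 0.54, interval -2.52 to -0.14, adjusted p = 0.531), with 0% of all genes called. It was -2.05 without paw Merkel library 2 (adjusted p = 0.131) and -0.85 without paw Merkel library 1 (adjusted p = 0.339). The other log2 differences were -0.82 for Piezo1 (adjusted p = 0.897), -0.63 for Tmem63b (adjusted p = 0.785) and 0.12 for Tmem63a (adjusted p = 0.999). In that test edgeR called 0 of 4, 1 had an unadjusted p under 0.05, against 1365 of all genes, and DESeq2 called 0, against 273 of all genes.

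The genes whose log2 CPM followed each channel most closely over the 8 libraries were listed by Pearson's r, as a description, since the libraries share 4 groups and 461 of 10103 candidate genes reached an r above 0.95 with Piezo2. For Piezo2 they were Nova2, a neuronal splicing regulator (r = 0.9995, 5.08 to 14.9 CPM in Merkel and at most 0.0815 CPM in IFE libraries), Runx1t1, a transcriptional corepressor (0.9983), Cacna1a, a presynaptic calcium channel (0.9983), Cntnap3, an adhesion protein of the contactin-associated family (0.9982), and Mtcl1, a microtubule crosslinking protein (0.9981). Mtcl1 had 273 to 608 CPM in Merkel and 12.7 to 20.0 CPM in IFE libraries. For Piezo1 they were Kif1c, a kinesin motor (0.9707), Ugt1a6b, a glucuronosyltransferase (0.9674), and Stambpl1, a deubiquitinase (0.9615), and 11 genes were above 0.95. Ugt1a6b belongs to a locus whose transcripts share exons, so its own counts are uncertain. Tmem63a was closest to Fam102a (0.9612), Hoxa9, a transcription factor of body position (0.9327), and Acadvl, an enzyme of mitochondrial fatty acid oxidation (0.9232). Tmem63b was closest to Psmb2, a proteasome subunit (0.9265), Patl1, a protein of mRNA decay (0.9209), and Vps52, a vesicle tethering protein (0.9093), and had no gene above 0.95.

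Among 14 auxiliary and regulatory partners of Piezo channels, all tested, 1 rose in paw Merkel cells and 0 fell, where 6.21% of all genes were called, with a median log2 fold change of -0.23, against -0.04 over all genes. In back skin 2 rose and 3 fell, where 15.4% of all genes were called, with a median of -0.52, against -0.06 over all genes. Anxa6, a membrane-binding annexin that modulates mechanically activated currents in mouse sensory neurons, measured 228 ± 72.0 CPM in paw Merkel cells and 76.3 ± 21.2 CPM in paw IFE cells (SD, n = 2 each), a log2 fold change of 1.58 (SE 0.36, adjusted p = 0.0239). In back skin it measured 413 ± 10.7 CPM in Merkel and 76.8 ± 5.80 CPM in IFE cells (2.43, SE 0.37, adjusted p = 0.00132). The back call of Anxa6 held without any 1 library, and the paw call was lost without either paw IFE library (adjusted p up to 0.224). Tmem120b, a multipass membrane protein related to Tmem120a, rose to 40.6 ± 6.67 CPM in Merkel cells of back skin, against 0.962 ± 1.28 CPM in IFE cells there (5.37, adjusted p = 0.0282). Pacsin3, a membrane-bending adaptor, fell to 3.71 ± 0.412 CPM in the same Merkel cells, against 29.1 ± 1.46 CPM in IFE cells (-2.97, adjusted p = 0.0144). Mdfic, a MyoD-family inhibitor protein that binds the Piezo pore module, fell to 1.01 ± 1.15 CPM there, against 24.8 ± 7.66 CPM in IFE cells (-4.59, adjusted p = 0.0207). Ctnnb1, beta-catenin, was the fifth call in back skin and is named after its values were seen (-1.08, adjusted p = 0.0345). All 4 of these calls were lost when back Merkel library 2 or back IFE library 1 was left out, and those of Tmem120b, Pacsin3 and Ctnnb1 when back Merkel library 1 was. Pacsin3 and Ctnnb1 were also lost on leaving out back IFE library 2, and Ctnnb1 on leaving out either paw IFE library (adjusted p up to 0.107 for Tmem120b, 0.0666 for Pacsin3, 0.0927 for Mdfic and 0.192 for Ctnnb1). With 1 library left out, Tmem120b ran from 4.44 to 9.36 and Mdfic from -6.96 to -3.76 on the log2 scale. In the paw edgeR called none of these 4 genes. The paw log2 fold change was 4.86 for Tmem120b (adjusted p = 0.0701), -0.32 for Pacsin3 (adjusted p = 0.835) and -0.68 for Mdfic (adjusted p = 0.757). For Ctnnb1 it was 0.47 (adjusted p = 0.415), opposite in direction to its back value.

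Of 21 other mechanically gated or mechanosensitive channels and partners, 18 were tested. In the paw 1 rose and 0 fell, where 6.21% of all genes were called, with a median log2 fold change of 0.07, against -0.04 over all genes. In back skin 4 rose and 3 fell, where 15.4% of all genes were called, with a median of 0.85, against -0.06. Tmc2, a pore subunit of the hair cell transduction channel, measured 8.08 ± 3.70 CPM in paw Merkel cells (SD, n = 2), with 1 count in paw IFE cells. Its edgeR log2 fold change in the paw was 8.13 (SE 1.66, adjusted p = 0.0141). The ratio of Merkel to IFE was 325 with an exact binomial interval of 57.8 to 12900. In back skin it measured 39.5 ± 24.9 CPM in Merkel and 0.109 ± 0.154 CPM in IFE cells, a log2 fold change of 8.53 (SE 1.59, adjusted p = 0.00445). The back call of Tmc2 held without any 1 library, with log2 fold changes of 7.46 to 12.48, and the paw call was lost when either paw IFE library or back Merkel library 1 was left out (log2 fold changes of 7.40 to 10.11, adjusted p up to 0.125). Pkd1, the polycystin-1 receptor of the cilium, rose in back skin to 194 ± 10.9 CPM in Merkel cells, against 24.3 ± 2.2 CPM in IFE cells (2.99, SE 0.42, adjusted p = 0.000756) and held without any 1 library. Ano1, a calcium-activated chloride channel, fell to 12.8 ± 3.73 CPM in those Merkel cells, against 57.2 ± 2.27 CPM in IFE cells (-2.16, adjusted p = 0.0137). Kcnk2, the stretch-activated potassium channel TREK-1, fell to 0.657 ± 0.792 CPM, against 53.2 ± 26.1 CPM in IFE cells (-6.28, adjusted p = 0.0163). Both were lost when back Merkel library 2 or back IFE library 1 was left out (adjusted p up to 0.0957 for Ano1 and 0.116 for Kcnk2, whose log2 fold change ran from -9.02 to -5.44). The remaining calls in back skin, named after their values were seen, were Tmc4 (2.88, adjusted p = 0.0183) and Lhfpl5 (adjusted p = 0.0467), which were higher, and Tmc7 (-2.12, adjusted p = 0.0405), which was lower. Lhfpl5, a partner of the hair cell channel, had 423 counts in Merkel cells there and 0 in IFE cells and, with the same limit of 3 counts over the group, was at least 269-fold higher. Each of these 3 calls was lost when back Merkel library 2 or back IFE library 1 was left out (adjusted p up to 0.126 for Tmc4, 0.161 for Lhfpl5 and 0.439 for Tmc7). Lhfpl5 and Tmc7 were also lost without back Merkel library 1, Tmc4 and Lhfpl5 without back IFE library 2, and Tmc7 without either paw IFE library. With 1 library left out the log2 fold change of Tmc7 ran from -2.75 to -0.995 and that of Tmc4 from 2.44 to 3.20. In the paw Lhfpl5 measured 1.46 ± 2.07 CPM in Merkel and 1.36 ± 1.92 CPM in IFE cells (log2 fold change 0.14, edgeR adjusted p = 0.982). Tmc4 was at 0.52 (adjusted p = 0.714) and Tmc7 at -0.37 (adjusted p = 0.784) in the same paw comparison. Between the sites edgeR called 0 genes of either list, with 6 of 32 tested at an unadjusted p under 0.05 in Merkel cells (1550 of all 15151 genes) and 3 in IFE cells (643 of all genes), while DESeq2 called 1 in Merkel cells (Pacsin3, chosen here after its values were seen) and 0 in IFE cells.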

How the data were processed

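RNA was reverse transcribed and amplified from a small fixed input and sequenced in paired ends, per the labels' protocols. The authors deposited counts per gene, whole numbers over 24538 rows, and a table of FPKM over 24453 rows. The submitters' processing notes name the mm10 build, featureCounts (Subread 1.4.6), TopHat2 2.0.13, DESeq2 1.6.3 and Cufflinks 2.2.1. Annotation and strand setting are not given in the sources used here.

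Counts were filtered with filterByExpr (15151 genes left), scaled by TMM (the trimmed mean of M-values) and fitted with edgeR 4.0.16 in R 4.3.3, with 1 mean per group over all 8 libraries and 4 residual degrees of freedom. Comparisons used the quasi-likelihood F test with Benjamini-Hochberg adjustment over all genes tested and a threshold of 0.05, and confidence intervals use the moderated degrees of freedom. The steps were tested on simulated data. Levels are CPM after TMM scaling. Positions are from GENCODE vM21 (GRCm38, that is mm10). Limits of 3 counts for a count of 0 and binomial intervals reflect counting error alone, since reads copied during amplification are not separate molecules. FPKM was used only for levels between genes and in an alternative with limma 3.58.1, and DESeq2 1.42.0, other size factors, no filter, only the groups compared, the replicate number as a block and each library left out were further alternatives. The contrast averaged over both sites was added after seeing the data.

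Named were the 6 genes, from each of 2 lists up to 4 called genes per Merkel against IFE comparison, and the genes most alike in pattern among those reaching 10 CPM on average in their highest group (5 for Piezo2, 3 for the others, log2 CPM with a prior count of 2). The genes and lists were chosen with earlier results of these data known.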

Additional observations from a re-analysis of the deposited data

Results flagged for a closer look

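For Piezo2, both paw Merkel libraries were below both back Merkel libraries, and the groups of 35.4% of all genes likewise did not overlap. Without paw Merkel library 1 the log2 fold change of paw over back Merkel was -0.09, against -0.57 with all libraries. Both paw IFE libraries were above both back IFE libraries, a lack of overlap shared by 40.4% of all genes. The 2 cell types therefore lay in opposite directions between the sites. The test of this difference gave a log2 value of -1.33 (adjusted p = 0.531, edgeR quasi-likelihood test), and the adjusted p-values over its alternatives were 0.131 to 0.98.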

How the results depend on the processing

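Piezo2 kept its call in both Merkel against IFE comparisons under all 16 alternatives, with log2 fold changes of 5.12 to 6.67 in the paw (adjusted p = 3.59e-41 to 0.00138) and 6.19 to 7.58 in back skin (adjusted p = 1.94e-60 to 0.000356), and the number of these genes called was 1, 1, 0, 0 and 0 in the 5 comparisons throughout. Piezo1 stayed on the same side of the threshold, with adjusted p = 0.0512 to 0.468 in the paw and 0.18 to 0.824 in back skin. Directions turned only in comparisons where the gene named passed the threshold in no setting, and the cause was not tested. On log2(FPKM + 1), Tmem63a was at 0.168 and Tmem63b at 0.261 in paw Merkel against paw IFE, and Piezo1 at -0.144 and Tmem63a at -0.119 in paw against back IFE. On log2(FPKM + 0.1) these were 0.177, 0.265, -0.143 and -0.124 in the same order. With 1 library left out, Tmem63a ran from -0.432 to 0.079 and Tmem63b from -0.265 to 0.091 in paw Merkel against paw IFE. In paw against back Merkel, Piezo1 ran from -1.415 to 0.194, Tmem63a from -0.06 to 0.451 and Tmem63b from -0.681 to 0.126. In paw against back IFE, Piezo1 ran from -0.33 to 0.923 and Tmem63a from -0.129 to 0.367. In the difference between the sites' Merkel against IFE changes, Piezo1 ran from -1.583 to 0.029 and Tmem63a from -0.157 to 0.354.

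The labels do not say that replicate numbers pair libraries, and deviations of same-numbered libraries correlated at -0.0427 to 0.0845. With the replicate block Piezo2 was at 6.13 in the paw and 7.52 in back skin, the genes called were again 1, 1, 0, 0 and 0, and calls over all genes were 1144 in the paw and 2520 in back skin, against 941 and 2338 without it. DESeq2 called 2227 genes in the paw and 3963 in back skin. Over all 15151 genes, limma-trend on log2 CPM called 1096 in the paw and 3195 in back skin. In the partner list DESeq2 called 5 and limma-trend 3 in the paw, where edgeR called 1, and they called 8 and 7 in back skin, where edgeR called 5. In the list of other channels both called 3 in the paw, where edgeR called 1, and DESeq2 called 8 and limma-trend 7 in back skin, where edgeR called 7. Tmem63c and Stoml3 had too few counts to be tested.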
